A study of Homo sapiens with 6 samples.

Results

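Passage of a cell from G1 into S phase is driven by cyclins of the D and E types and by the kinases they activate. The members described here are the D-type cyclins CCND1, CCND2 and CCND3, their partner kinases CDK4 and CDK6, the E-type cyclins CCNE1 and CCNE2 with their partner CDK2, the inhibitor CDKN1B (p27) and RB1, the retinoblastoma protein. In the textbook scheme, cyclin D with CDK4 or CDK6 begins the phosphorylation of RB1, cyclin E with CDK2 extends it, and E2F factors then leave RB1 and switch on the genes of DNA replication. CDKN1B binds and restrains cyclin E with CDK2. CCND1 lies in a region of the long arm of chromosome 11 that is often amplified in squamous carcinomas of the head and neck.

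Probes were assigned to these genes by matching the RefSeq accession of every non-control probe to a gene symbol, which gave 12 of the 34127 probes for the 10 genes. The genes tested numbered 16821 in all. CCNE2 and CDKN1B had 2 probes each and the other 8 genes had 1. CCND1 was among the genes that the study picked from these samples for qRT-PCR, so its test here is not independent evidence.

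The samples were CAL-27 cells, an established line from a squamous carcinoma of the human tongue. Cells stably transduced with an shRNA against XBP-1s, the spliced form of the unfolded protein response factor XBP-1 (shXBP-1s, n = 3), were compared with cells carrying a negative control (shCtrl, n = 3), 1 Agilent 1-colour array per sample. Whether the replicates came from separate cultures, and whether the line was 1 clone or carried 1 shRNA sequence, is not given in the sources used here, so p-values measure the spread between these samples, which may be technical. The comparison asks which mRNAs differ once XBP-1s is reduced.

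XBP1 itself, read as a check of the labels, had a signal of 2534 to 2761 in shCtrl and of 551 to 695 in shXBP-1s, for a log2 fold change of -2.39 (standard error 0.04, limma adjusted p = 2.81e-07). Whether its probe tells the spliced from the unspliced form is not known here. All 8 squamous epithelial markers (KRT5, KRT14, KRT17, TP63, CDH1, EPCAM, DSG3 and SFN) were well above background on all 6 arrays. The 9 markers of other cell types given below were so too, so this criterion does not tell the 2 lists apart. Of the 8 squamous markers 6 passed the test described below in the direction of shXBP-1s, among them KRT5, KRT14, KRT17 and DSG3 by at least 2-fold. The summed signal of the 8 relative to the 75th percentile of the array was 102 to 109 in shCtrl and 135 to 160 in shXBP-1s. SFN, the brightest of them, weighs most in these sums, at a mean log2 level of 5.50 in shCtrl and 6.21 in shXBP-1s. Its signal was nearly the same on the shXBP-1s arrays, at 65229, 66106 and 66192. The same sum over 9 markers of blood, endothelial, fibroblast and muscle cells was 1.69 to 1.86 in shCtrl and 1.39 to 1.45 in shXBP-1s. Within the latter list PDGFRB fell by at least 2-fold (log2 fold change -1.28) and COL1A1 fell (-0.63), CD68 rose (0.65), and the other 6 did not pass by their brightest probe. The part of either shift in the results below was not tested. In bulk RNA, fewer cells in a phase of the cycle and less RNA per cell cannot be told apart. The slide of each sample was inferred from the scan date in the file headers, and samples with the same scan date are termed 1 slide. By that grouping the shCtrl replicates 2 and 3 were on slide 1, and shCtrl replicate 1 and the 3 shXBP-1s samples on slide 2.

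All 12 probes were well above background on all 6 arrays and none was saturated. Signals were compared as log2 values relative to the 75th percentile of the array, and a probe is said to have risen or fallen where limma gave a Benjamini-Hochberg adjusted p below 0.05 over the 27624 probes tested. By that rule 7 of the 12 probes differed, against a background of 41.7% of all tested probes. There were 4 lower (23.3% of all tested probes) and 3 higher (18.4%) in shXBP-1s. Of these only CCND1 also changed at least 2-fold, a combination met by 4.9% of all tested probes, 2.61% lower and 2.29% higher. The median absolute log2 fold change was 0.23 over the 12 probes and 0.23 over all tested probes.

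**Figure D1:**
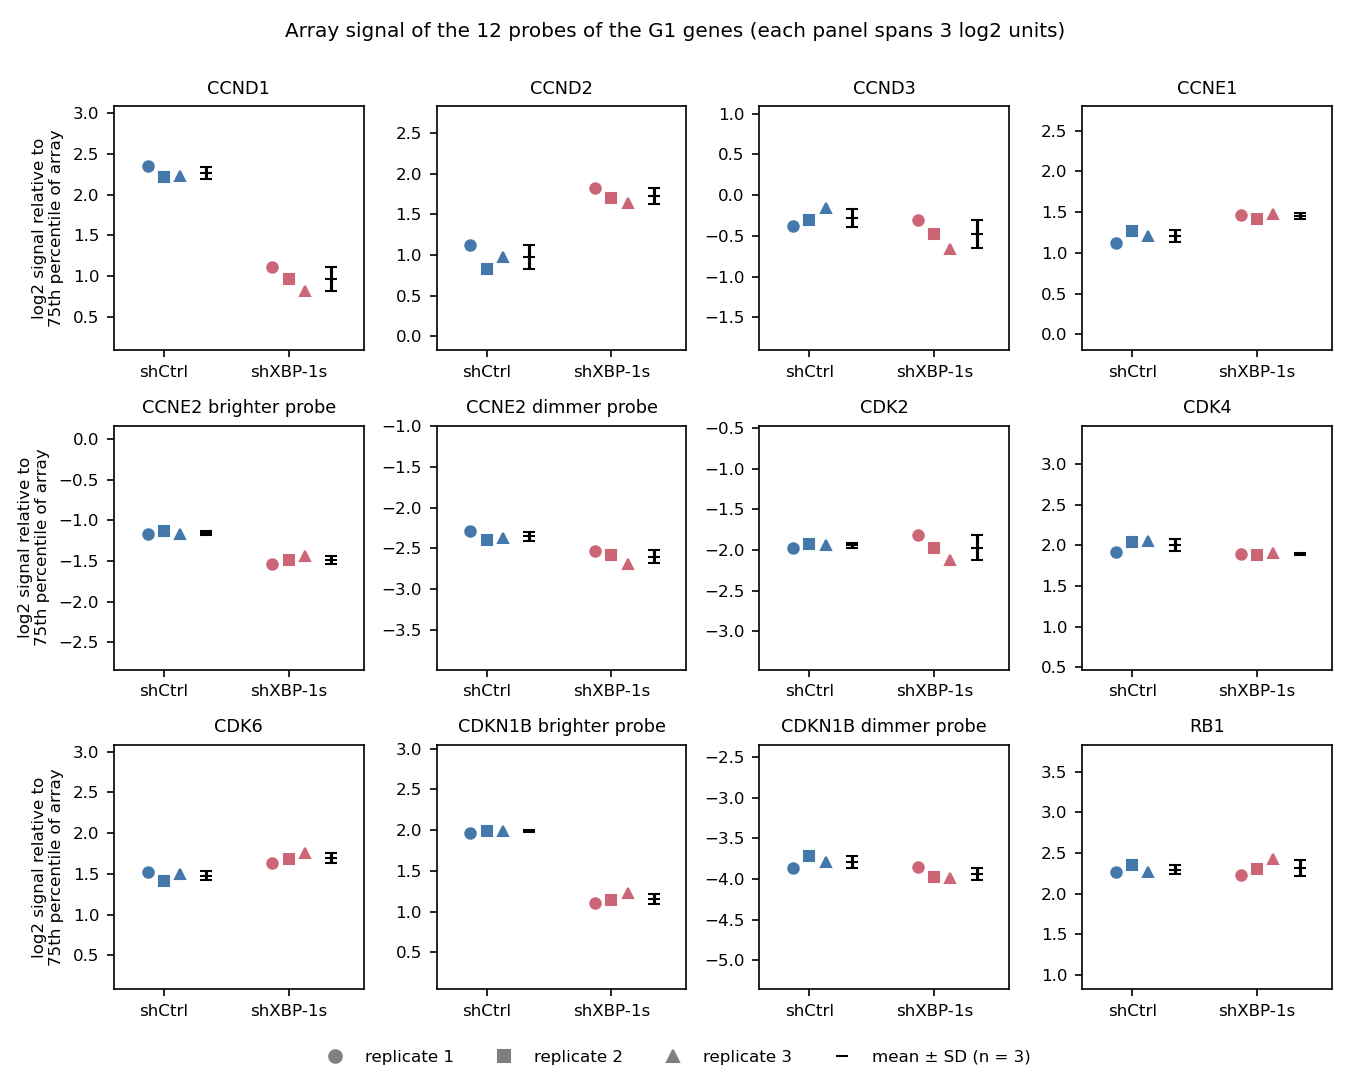
Log2 signal relative to the 75th percentile of the array for each of the 12 probes, with shCtrl in blue and shXBP-1s in red, 1 point per array, and bars for the mean ± SD (n = 3); every panel spans the same range of the log2 scale, but levels cannot be set against each other between panels. The groups are far apart for CCND1, CCND2 and the brighter CDKN1B probe, and overlap for CCND3, CDK2, RB1 and the dimmer CDKN1B probe.

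The D-type cyclins moved apart. CCND1, which pairs with CDK4 or CDK6 in response to growth signals, fell to 40.6% of its shCtrl level, CCND2 rose 1.68-fold, and CCND3 did not pass the test.

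For CCND1 (NM_053056) the signal before normalization was 3520, 3534 and 3533 on shCtrl arrays 1 to 3 and 2125, 1746 and 1396 on shXBP-1s arrays 1 to 3. Every shXBP-1s array was below every shCtrl array, although the shXBP-1s arrays were the brighter ones by their 75th percentile (792 to 983, against 687 to 761). Relative to that percentile, shCtrl stood at 2.27 ± 0.08 (SD, n = 3) on the log2 scale, against 0.96 ± 0.15 (SD, n = 3) for shXBP-1s. The log2 fold change was -1.30 (standard error 0.08, limma adjusted p = 1.04e-05), the 322nd lowest among the 27624 tested probes. The probe was spotted 10 times on each array, and the SD of the log2 signal among its spots was between 0.06 and 0.12. Against shCtrl replicate 1 alone, which shares slide 2 with the shXBP-1s samples, the log2 difference was -1.39. Under normexp background correction, which moved the median of all tested probes to -0.41, CCND1 was at -1.16, or -0.75 relative to that median. With quantile normalization added it was at -1.22.

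CCND2 (NM_001759), a second D-type cyclin with the same kinase partners, read 1497, 1352 and 1480 on the shCtrl arrays and 3490, 2903 and 2470 on the shXBP-1s arrays. The groups did not overlap. On the normalized log2 scale it went from 0.97 ± 0.15 (SD, n = 3) to 1.72 ± 0.10 (SD, n = 3), a log2 fold change of 0.75 (standard error 0.08, limma adjusted p = 2.03e-04). The rise was below 2-fold, and within slide 2 it was 0.60. Under normexp it was 0.80, and 0.77 with quantile normalization added. Only relative to the median of all tested probes under normexp, at 1.21, was it over 2-fold.

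CCND3 (NM_001760), the third D-type cyclin, read 527, 616 and 677 in shCtrl and 796, 643 and 502 in shXBP-1s. After normalization its arrays overlapped, at -0.28 ± 0.11 (SD, n = 3) and -0.48 ± 0.18 (SD, n = 3), and the log2 fold change of -0.20 did not pass (standard error 0.10, limma adjusted p = 0.142).

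The separation within the family was measured as a difference between genes on the same array. The log2 fold change of CCND1 minus that of CCND2 was -2.05 (standard error 0.06), CCND1 minus CCND3 was -1.10 (standard error 0.11), and CCND2 minus CCND3 was 0.95 (standard error 0.13). In each of the 3 pairs the shXBP-1s arrays lay wholly on 1 side of the shCtrl arrays. The exact permutation test over the 6 arrays, 2-sided, gave p = 0.1 for each of 5 pairs compared within the families, and 0.1 after Benjamini-Hochberg adjustment, the smallest p that 3 arrays against 3 allow.

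**Figure D2:**
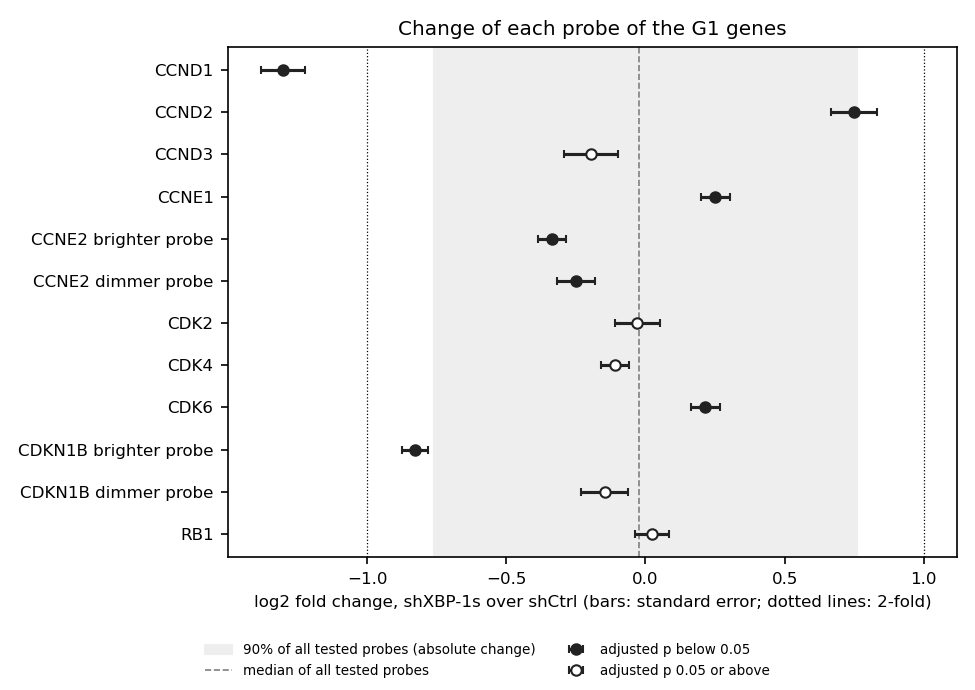
Log2 fold change (shXBP-1s over shCtrl) of each of the 12 probes with its standard error, filled where the limma adjusted p is below 0.05; the grey band holds 90% of all tested probes by absolute change and the dotted lines mark 2-fold. CCND1 (-1.30) lies outside 2-fold, the brighter CDKN1B probe (-0.83) outside the grey band, and CCND2 (0.75) at its edge.

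The E-type cyclins also went in opposite directions, by less. CCNE1 rose and CCNE2 fell by both of its probes, each by less than 2-fold.

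CCNE1 (NM_001238), an activating partner of CDK2, read 1501, 1839 and 1752 in shCtrl and 2724, 2389 and 2208 in shXBP-1s. Normalized, the groups stood at 1.20 ± 0.07 (SD, n = 3) and 1.46 ± 0.03 (SD, n = 3) without overlap, and the log2 fold change was 0.25 (standard error 0.05, limma adjusted p = 0.00524).

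CCNE2 (NM_057749), the second activating partner of CDK2, read 305, 348 and 337 in shCtrl and 338, 318 and 291 in shXBP-1s by its brighter probe. On the normalized scale the 3 shXBP-1s arrays were below the 3 shCtrl arrays, at -1.49 ± 0.05 (SD, n = 3) against -1.16 ± 0.02 (SD, n = 3), a log2 fold change of -0.34 (standard error 0.05, limma adjusted p = 0.00115). The dimmer probe gave -0.25 (standard error 0.07, limma adjusted p = 0.0204), and its change differed from that of the brighter probe by -0.09 (standard error 0.09, exact permutation p = 0.4). Under normexp the brighter probe was at -0.41 and the dimmer at -0.53, and neither passed (limma adjusted p = 0.123 and 0.300). Relative to the median of all tested probes under that correction, the brighter probe was at 0.01 and the dimmer at -0.12. The log2 fold change of CCNE1 was 0.59 above that of CCNE2 (standard error 0.05).

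Of the 3 kinases, only CDK6 passed, with a small rise. CDK4 and CDK2 did not.

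CDK6 (NM_001259) read 1968, 2028 and 2141 in shCtrl and 3049, 2884 and 2672 in shXBP-1s. Normalized, the groups did not overlap, at 1.48 ± 0.06 (SD, n = 3) and 1.69 ± 0.06 (SD, n = 3), a log2 fold change of 0.21 (standard error 0.05, limma adjusted p = 0.0118). The test was not passed with the slide as a block, where the log2 fold change was 0.17 and the limma adjusted p 0.113, and that fit rests on shCtrl replicate 1 alone. Nor was it passed without shXBP-1s replicate 2, where the log2 fold change was 0.22 (limma adjusted p = 0.0513).

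CDK4 (NM_000075), the other partner of the D-type cyclins, read 2595, 3137 and 3141 in shCtrl and 3639, 3306 and 2974 in shXBP-1s. Normalized, its 3 shXBP-1s arrays, between 1.89 and 1.91, were just below the shCtrl arrays, between 1.92 and 2.06. The log2 fold change of -0.11 did not pass (standard error 0.05, limma adjusted p = 0.116), but passed without shCtrl replicate 1, at -0.16 (limma adjusted p = 0.0255). The CDK4 change minus that of CDK6 on the same arrays was -0.33 (standard error 0.07).

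CDK2 (NM_001798), the partner of the E-type cyclins, had 10 spots per array and read between 175 and 201 in shCtrl and between 182 and 278 in shXBP-1s. Its log2 fold change was -0.03 (standard error 0.08, limma adjusted p = 0.800), with shCtrl arrays between -1.97 and -1.92 and shXBP-1s arrays between -2.12 and -1.82. The shXBP-1s arrays thus lay on either side of the shCtrl arrays.

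CDKN1B, the inhibitor, fell by the brighter of its probes. That probe (NM_004064), spotted 10 times per array, read 2694, 3032 and 3002 in shCtrl and 2110, 1983 and 1849 in shXBP-1s. The groups were separate even before normalization. On the normalized scale the level was 1.99 ± 0.01 (SD, n = 3) and 1.16 ± 0.06 (SD, n = 3), a log2 fold change of -0.83 (standard error 0.05, limma adjusted p = 7.49e-06), which leaves 56.4% of the shCtrl level. It was the 1203rd lowest of the tested probes. Under normexp it was at -0.72, or -0.31 relative to the median of all tested probes. The dimmer probe of the same accession, with 1 spot per array, read 47.4 to 57.8 in shCtrl and 49.9 to 68.0 in shXBP-1s, and gave -0.15 (standard error 0.08, limma adjusted p = 0.202). The change of the brighter probe minus that of the dimmer was -0.68 (standard error 0.08, exact permutation p = 0.1, the smallest possible). Comparing the probes was decided after their values were seen, and which part of the transcript each probe reads is not known here.

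RB1 (NM_000321), the substrate of these kinases, had 10 spots per array and overlapped between groups after normalization, though not before it. It read between 3297 and 3895 in shCtrl and between 4261 and 4609 in shXBP-1s, which after normalization was 2.30 ± 0.05 (SD, n = 3) and 2.32 ± 0.10 (SD, n = 3). The log2 fold change was 0.02 (standard error 0.06, limma adjusted p = 0.779).

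The groups did not overlap for 8 of the 12 probes, against 52.4% of all tested probes. These were 5 lower (28.5%) and 3 higher (23.9%) in shXBP-1s. CCND1, CCND2, CCNE1 and the brighter CDKN1B probe passed under each of the 18 settings run, with ranges of the log2 fold change from -1.39 to -1.16, 0.60 to 0.82, 0.21 to 0.34 and -0.86 to -0.72. CCND1 was also at least 2-fold lower in all 18. Only relative to the median of all tested probes under normexp was its fall smaller, at -0.75. Not every probe moved with that median. From the reported setting to normexp the dimmer CDKN1B probe went from -0.15 to -0.64, but RB1 from 0.02 to 0.15. Under normexp CCNE1 was at 0.34, CDK6 at 0.31, CDK4 at -0.04, CCND3 at -0.17 and CDK2 at -0.28. Relative to the median CCNE1 was at 0.75, CDK6 at 0.72 and RB1 at 0.57. CDK4 (0.37), CCND3 (0.25) and CDK2 (0.13) came above 0 under normexp only by that subtraction.

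**Figure D3:**
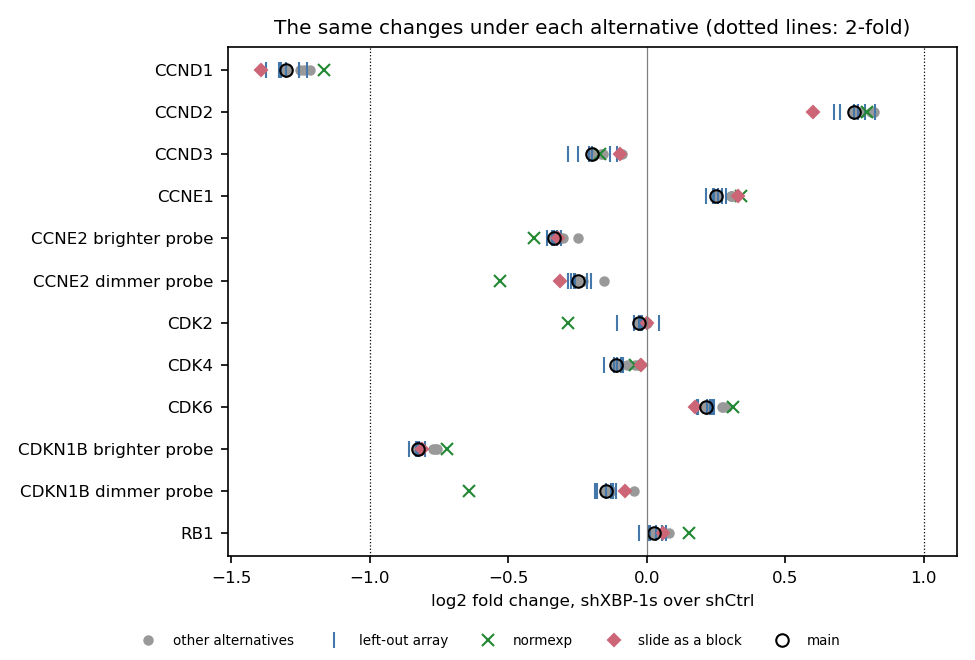
Log2 fold change (shXBP-1s over shCtrl) of each of the 12 probes under the 18 settings, with the value as reported as an open circle, the other alternatives as grey points, the fits that leave out 1 array as blue ticks, the normexp correction as green crosses and the slide block as red diamonds. CCND1 stays beyond the dotted 2-fold line in all of them, and the probes whose green cross lies well to the left are the dim ones.

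RefSeq promoter sequences (GRCh38.p14) were at hand for 6 of the 10 genes, namely CCND3, CCNE1, CDK4, CDK6, CDKN1B and RB1. There were no entries for CCND1, CCND2, CCNE2 and CDK2. XBP-1s binds sites with an ACGTG core, so the 250 bases before each annotated start were searched on both strands for this core. The E-box CACGTG, which holds the core on each strand, and the core of the unfolded protein response element, TGACGTG, which also holds it, were searched as well. The CCAAT box was searched alone and with CCACG following after 9 bases, which together make the endoplasmic reticulum stress element. For E2F factors the spellings were TTTGGCGC as well as TTTCGCGC along with TTTCCCGC and also TTTGCCGC. Of 35116 such windows in the table, 18.5% held ACGTG, 6.34% CACGTG, 1.68% TGACGTG, 32% CCAAT, 0.074% the stress element and 2.79% an E2F spelling. The windows shown are 3: CDKN1B, the member with the largest change that has an entry; CDK4, the window with the most ACGTG cores among the members; and the inner of the 2 CDK6 starts, the window with TGACGTG. Capitals mark the matches.
CDKN1B, chr12:12717118-12717367, plus strand: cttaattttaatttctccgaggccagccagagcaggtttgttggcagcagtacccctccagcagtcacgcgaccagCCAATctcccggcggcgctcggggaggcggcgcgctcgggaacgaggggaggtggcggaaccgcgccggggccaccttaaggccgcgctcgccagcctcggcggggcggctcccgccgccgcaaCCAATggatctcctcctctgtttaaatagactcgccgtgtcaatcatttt
CDK4, chr12:57752311-57752560, minus strand: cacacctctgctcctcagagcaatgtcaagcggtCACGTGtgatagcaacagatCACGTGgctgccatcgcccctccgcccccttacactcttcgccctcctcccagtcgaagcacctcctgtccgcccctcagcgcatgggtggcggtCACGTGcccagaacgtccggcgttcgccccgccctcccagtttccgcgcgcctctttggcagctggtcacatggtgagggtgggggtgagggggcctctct
CDK6 inner start, chr7:92833960-92834209, minus strand: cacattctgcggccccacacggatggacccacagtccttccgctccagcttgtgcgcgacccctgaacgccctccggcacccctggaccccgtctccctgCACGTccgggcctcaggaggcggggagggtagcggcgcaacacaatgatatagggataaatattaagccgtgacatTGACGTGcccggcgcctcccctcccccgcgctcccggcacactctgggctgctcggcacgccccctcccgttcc

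CDKN1B, whose brighter probe fell, held CCAAT 2 times, from bases 174 and 50 before the start, and no ACGTG. CDK4, which did not pass the test, held CACGTG 3 times, and 0.0797% of all windows hold it at least that often. The inner CDK6 start held TGACGTG from base 74 before the start, and the outer CDK6 start held none of the motifs, as did CCNE1 and RB1. CCND3 held CCAAT in 2 of its 3 windows, from bases 136 and 64 before the start. The RB1 entry starts inside the gene and is not its main promoter. No E2F spelling and no stress element was in any of the members' windows. A match is a description of letters and not evidence of binding.

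The rest of the pathway was described with lists of genes, each gene by its brightest tested probe. Among the 6 other CDK inhibitors, CDKN1C (p57), CDKN2D (p19) and CDKN2C (p18) fell and the other 3 did not pass, against 27.5% of all tested genes lower and 18.9% higher at an adjusted p below 0.05. The count that fell was 3 under each of the 18 settings, whereas the count that rose ranged from 0 to 3, with 3 under quantile normalization and with the deposited log2 values. CDKN1C and CDKN2D fell at least 2-fold, against 2.88% of all tested genes. CDKN1C, of the same family as CDKN1B, read 319, 478 and 349 in shCtrl and 109, 95.7 and 88.6 in shXBP-1s, and fell by a log2 fold change of -2.22 (standard error 0.12, limma adjusted p = 6.05e-06). CDKN2D, an inhibitor of CDK4 and CDK6, read 1706, 1989 and 1904 in shCtrl and 989, 898 and 811 in shXBP-1s, for a log2 fold change of -1.33 (standard error 0.04, limma adjusted p = 1.36e-06). Both sets of arrays were separate before normalization. CDKN2C gave -0.74, whereas CDKN1A (p21) at 0.25, CDKN2B (p15) at 0.37 and the brighter CDKN2A probe at 0.13 did not pass. The dimmer CDKN2A probe rose (0.18, limma adjusted p = 0.021). The median log2 fold change of the 6 genes was -0.30, against -0.04 over all tested genes.

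Of 12 pocket proteins and E2F factors, 2 fell, 2 rose and 8 did not pass, with a median log2 fold change of -0.02. That is 16.7% in each direction, against 27.5% of all tested genes lower and 18.9% higher. E2F2, an activating E2F, read 151, 188 and 191 in shCtrl and 118, 112 and 90.9 in shXBP-1s, and its log2 fold change of -0.998 (limma adjusted p = 3.13e-05) was just short of 2-fold. It reached 2-fold without shCtrl replicate 1 and without shXBP-1s replicate 2. RBL2 (p130), a relative of RB1, gave -0.37, and E2F5 and the E2F partner TFDP2 gave 0.44 and 0.41. E2F1 (-0.05) and RBL1 (-0.04) did not pass. Over the settings 1 to 4 genes of the list fell and 1 to 3 rose.

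Among 15 genes that activate CDKs or take part in the destruction of G1 cyclins and CDKN1B, 7 fell, 2 rose and 6 did not pass, and none changed 2-fold. The background was 27.5% of all tested genes lower and 18.9% higher. The count that fell ranged from 1 under normexp to 7, and was 3 with the slide as a block. The median relative to that of all tested genes was -0.07, and 0.21 under normexp. GSK3B, a kinase that marks cyclin D1 for export and destruction, rose from 656, 625 and 688 in shCtrl to 1681, 1461 and 1221 in shXBP-1s, for a log2 fold change of 0.86 (standard error 0.07, limma adjusted p = 3.84e-05). FBXW7, which directs cyclin E to the proteasome, gave -0.42 (limma adjusted p = 1.14e-04). SKP2 and CKS1B, which together direct CDKN1B to the proteasome, gave -0.26 and -0.30 by their brightest probes, and both passed. The dimmer CKS1B probe gave -0.03 (limma adjusted p = 0.775).

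Of 23 E2F target genes of S phase entry, 18 fell, none rose and 5 did not pass, against 27.5% of all tested genes lower and 18.9% higher. Their median log2 fold change was -0.38, against -0.04 over all tested genes, with a range from -0.77 to 0.11. PCNA, the sliding clamp of DNA polymerase, read 6700, 7490 and 7336 in shCtrl and 6612, 5992 and 5387 in shXBP-1s. Its normalized log2 signal went from 3.29 ± 0.01 (SD, n = 3) to 2.75 ± 0.01 (SD, n = 3), a log2 fold change of -0.53 (limma adjusted p = 2.87e-05), and its second probe gave -0.52. MCM3, of the replicative helicase, likewise gave -0.53 (limma adjusted p = 2.90e-05). CCNA2, the S phase cyclin, at 0.11 and RRM1 at -0.07 did not pass. These falls are small, and relative to the median of all tested genes the list's median ranged from -0.39 to -0.10 over the settings, the latter under normexp. The count that fell was 12 under normexp and 13 with the slide as a block.

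Of 12 markers of G2 and mitosis, 6 fell, none rose and 6 did not pass, against 27.5% of all tested genes lower and 18.9% higher. Their median log2 fold change was -0.08, against -0.04 over all tested genes, and the lowest value was -0.31. CCNB2, a mitotic cyclin, gave -0.31 (limma adjusted p = 9.26e-04). CCNB1, the other mitotic cyclin, gave -0.50 by its dimmer probe (limma adjusted p = 1.1e-04) and 0.04 by the brighter. CDK1, the kinase they activate, gave -0.29 (limma adjusted p = 0.00225). The count that fell ranged from 0 to 6 over the settings, and the count that rose from 0 to 1. Under normexp 0 fell and 1 rose, and the median relative to that of all tested genes was 0.18.

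**Figure D4:**
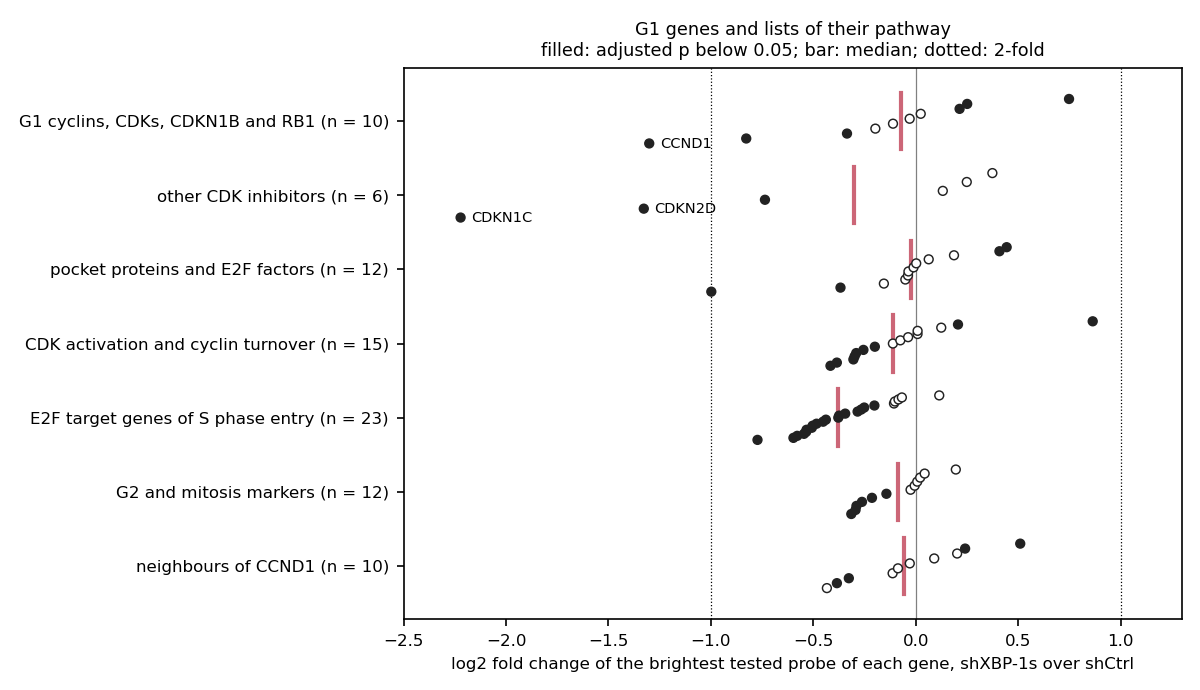
Log2 fold change (shXBP-1s over shCtrl) of each gene of the 10 G1 genes and of 6 lists of their pathway, 1 point per gene by its brightest tested probe, filled where the limma adjusted p is below 0.05, with the median of each list as a red bar and 2-fold as dotted lines. The named points CCND1, CDKN1C and CDKN2D are the ones beyond 2-fold, and most of the E2F targets sit to the left of 0.

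The genes next to CCND1 on chromosome 11 were also read. FGF19 was not well above background on any array and was not tested. Of the other 10 genes from TPCN2 to SHANK2, CTTN and FGF3 fell, ANO1 and FADD rose, and 6 did not pass, with a median log2 fold change of -0.06. That is 20% in each direction, against 27.5% of all tested genes lower and 18.9% higher. LTO1, which lies next to CCND1, gave 0.09 (limma adjusted p = 0.207). FADD, an adaptor of death receptors, read 7293 to 8047 in shCtrl and 10685 to 11449 in shXBP-1s, for a log2 fold change of 0.24. ANO1, a chloride channel, gave 0.51 (limma adjusted p = 0.00289) by a dim probe, at 37.0 to 39.2 in shCtrl and 57.2 to 72.1 in shXBP-1s. The FGF3 probe was dim as well, at 44.2 to 66.4 in shCtrl and 45.8 to 56.7 in shXBP-1s. The brighter CTTN probe gave -0.33 and the dimmer 0.70. Over the settings 0 to 2 of the neighbours fell and 1 to 3 rose. By their brightest probes none of the 10 genes was as far below its shCtrl level as CCND1, the lowest being SHANK2 at -0.43, which did not pass. That SHANK2 probe was dim, at 15.9 to 23.4 in shCtrl and 15.2 to 20.8 in shXBP-1s. The dimmer SHANK2 probe gave -0.61 and did not pass either (limma adjusted p = 0.302).

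The genes whose profile over the 6 arrays was most like that of CCND1, by the root mean square difference of log2 values centred on the shCtrl mean, were ELF3 (0.026), TLCD4 (0.032) and SEC63 (0.037). Their log2 fold changes were -1.27, -1.31 and -1.32. This measure picks genes with the same size of change and says nothing more of them. In the pathway lists, CDKN2C, RBL2, TFDP2, E2F1, RBL1, SKP2, CKS1B, CDK1, CCNA2, RRM1, FGF3, FADD and LTO1 were named after their values were seen.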

How the data were processed

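Each sample was hybridised to 1 Agilent 1-colour array. The authors deposited the output of Feature Extraction 11.0.1.1, whose spot intensity had its background removed and was left unscaled across arrays, and a table of log2 values with equal quartiles on the 6 arrays. How that table was made is not given in the sources used here beyond the name RMA in the submitters' processing notes, and it served as an alternative. The labels describe NimbleGen labelling. Per the file headers, the deposited flags mark spots that are outliers, saturated or well above background.

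Of 44495 spots, 1377 were controls. Log2 signals minus the 75th percentile of the array were averaged over the unflagged spots of a probe. A probe was tested where more than 50% of its spots were well above background on every array of a group, with limma 3.58.1 in R 4.3.3 (lmFit, eBayes with trend), 2-sided, with Benjamini-Hochberg adjustment. Depth has no counterpart here, and the number of arrays limits the precision. The accessions of 25771 of 34127 probes matched RefSeq symbols of GRCh38.p14. The array annotation names hg19, so the only coordinates given are those of the promoter windows, from GRCh38.p14. The fit was tested on simulated data for shXBP-1s against shCtrl over 27624 probes and recovered 196 of 200 probes changed by log2 fold changes of 1.5 to 3, with 3 other calls. Every member change was smaller than 1.5, and far fewer probes were changed than passed in these data. The simulation therefore does not show how well changes of the members' size are found.

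The members and lists were chosen with earlier results of these data known. Named are all members, XBP1, list genes called at least 2-fold, the 2 genes of each list with the smallest p in any tested probe, and the 3 genes most like CCND1. An item that this rule covers is not reported here. The alternatives were normexp, with an offset of 50 on median spot signals, alone and followed by quantile normalization, quantile normalization alone, the table of deposited log2 values, no filter or a stricter filter on dim probes, eBayes without trend, the t-test of the methods, no minimum fold change, the slide or the replicate number as a block, averaging the probes of each gene, and leaving out each array.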

Additional observations from a re-analysis of the deposited data

How the results depend on the processing

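Over all tested probes, 1354 met both thresholds, the adjusted p and the 2-fold change, and are termed called. The count was 473 under normexp, 363 under normexp with quantile normalization and 11516 without a minimum fold change. Without a minimum fold change 7 of the 12 member probes passed, as did 4 pocket proteins and E2F factors, 9 genes of CDK activation and cyclin turnover, 18 E2F targets, 6 markers of G2 and mitosis and 4 neighbours of CCND1. Of all tested probes 41.7% passed, and of all tested genes 27.5% passed as lower and 18.9% as higher. With each array left out in turn, between 0 and 1 of the pocket proteins and E2F factors were called. Normexp lowered the share of higher among called probes from 46.7% to 33.6%, with the median of all tested probes at -0.41. CDK2 changed sign under quantile normalization (0.00107), with the slide as a block (0.00151) and without shXBP-1s replicate 3, its values with each array left out ranging from -0.106 to 0.0452. RB1 changed sign without shXBP-1s replicate 3, with a range from -0.0292 to 0.0702, and no such value passed the test. Of the changes of the 12 probes under the 17 alternatives, 191 kept direction and side of the adjusted p threshold, 7 no longer passed it, 2 newly passed it and 4 changed sign. The dimmer CCNE2 probe did not pass without shCtrl replicate 3 (log2 fold change -0.26, limma adjusted p = 0.0542), shXBP-1s replicate 2 (-0.26, 0.0619) or shXBP-1s replicate 3 (-0.20, 0.0539), and CCND3 passed without shXBP-1s replicate 1 (-0.28, 0.0443). Counting at an adjusted p alone was added after the data were seen, and gave 5 to 8 member probes. The cause of these differences was not tested.

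With the replicate number of the labels as a block, 7 member probes passed and the CCND1 log2 fold change stayed at -1.30, and every member probe stayed on its side of the threshold. The deviations of same-numbered samples correlated at -0.02, 0.12 and -0.12, so the numbers were not taken to pair the samples. Dim probes are limited by background, and 3 arrays per group limit every value.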
